A study of Mus musculus with 10 samples.

Results

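The 76 cytosolic ribosomal protein genes are described here in mouse splenic CD8+ T cells that carried or had lost Dusp2 in CD8+ cells and were activated or left at rest. A gene was a member when its row was annotated as protein coding and its symbol was Rps or Rpl followed by a number with at most one closing letter a, x or y, a P-stalk symbol (Rplp0, Rplp1, Rplp2) or Rpsa. This took 76 of the 57010 genes in the table, 30 of the small (40S) and 46 of the large (60S) subunit. The rule used names and annotation and no expression values, though it was set with earlier results of these data known. All 76 passed the filter on low counts, and each had at least 10565 counts in every library. The name rule left out 4 parts of the ribosome, among them Rps3a1, Rack1 and Fau, and the diverged or copied relatives such as Rps27l, Rpl22l1 and Rpl7l1, whose values are given beside the members.

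The study measured polyadenylated RNA of CD8+ T cells from spleen in 10 libraries. Dusp2 conditional knockout cells (cKO, Dusp2fl/fl-E8I-cre+/-) came from 3 mice and floxed control cells (Dusp2fl/fl-E8I-cre-/-) from 2 mice. Cells of every mouse were split into a culture with anti-CD3/CD28 beads for 24 h and a culture without beads. Both genotypes therefore carried the floxed alleles, and the Cre driver, which uses a Cd8a enhancer active in mature CD8+ T cells, was present in the cKO mice only. An effect of Cre cannot be told apart from the loss of Dusp2. Dusp2 encodes a nuclear phosphatase of MAP kinases. The mice's ages were not given in the sources used here. Control mouse 1 and cKO mice 1 and 2 were male and share the number 116 in their names. Control mouse 2 and cKO mouse 3 were female and share 119, so sex and whatever that number marks cannot be told apart.

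Library totals were 51203786 to 65135435 counts. For cKO mouse 3, the title of each library contradicts its characteristics and library name, and the groups used here follow the characteristics and library name. Dusp2, the targeted gene, was at 46.4 to 56.3 CPM (counts scaled to the same library size) in activated and 24.8 to 28.1 CPM in rested cKO cells, against 292 and 299 CPM in activated and 87.8 and 97.4 CPM in rested control cells. Il2ra, the activation-induced IL-2 receptor alpha chain, was at 355 to 464 CPM in the activated libraries of both genotypes and at 0.94 to 2.47 CPM in the rested ones, with both libraries of cKO mouse 3 on the side of their library names. The 8 CD8 T cell markers summed to 3412 to 4080 CPM in every library (marker sums are scaled to the library total, without TMM). CD4 T cell (1.32 to 3.20 CPM), myeloid (0.435 to 3.14 CPM), NK cell (1.15 to 5.12 CPM) and erythroid markers (at most 0.136 CPM) were low, while the 6 B cell markers summed to 232 to 355 CPM, nearly all of it Ighm. Of the other B cell genes, Cd79b had 132 to 308 counts and Cd79a 18 to 53 counts in each library, while Ms4a1 and Pax5 had at most 6 and were at 0 in some.

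A ribosome builds protein from messenger RNA, and each of its subunits is a core of ribosomal RNA studded with ribosomal proteins, most of them needed in equal numbers. The messages of these proteins are among the most abundant in a lymphocyte and begin with a cytosine followed by a run of pyrimidines, the 5′ terminal oligopyrimidine (TOP) tract. When mTORC1 is active these TOP messages are translated, and when it is not the protein LARP1 holds them back, so that the amount of message and the amount of protein made can part ways. A quiescent T cell that meets its antigen grows, makes new ribosomes and divides, and the genes that process ribosomal RNA are known targets of MYC in such cells. Total RNA per cell was not measured, so every level is relative to the other messages of its library. In bulk samples fewer cells of a type and less RNA per cell cannot be told apart.

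Together the 76 genes held a similar part of the messages in rested and activated cells. They made up 6.47, 6.83 and 6.56% of all counts in activated cKO cells, against 6.18, 6.38 and 5.85% in the rested cells of the same mice. In control cells they took 6.24 and 6.06% after activation, against 5.98 and 5.61% at rest. The share was higher after activation in each of the 5 mice, and within a genotype the states did not overlap, though rested cKO mouse 2 lay above both activated control mice. As group means this was 6.62 ± 0.185% in activated and 6.14 ± 0.268% in rested cKO cells (SD, n = 3 each), and 6.15 ± 0.129% in activated and 5.79 ± 0.259% in rested control cells (SD, n = 2 each). Of all counts, the 46 large-subunit genes took 3.74% in activated and 3.43% in rested cKO cells, and 3.48% in activated and 3.23% in rested control cells.

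The machinery that assembles ribosomes behaved otherwise. The 46 genes of the ribosome biogenesis list, which covers RNA polymerase I, the small nucleolar ribonucleoproteins and the processing factors, took 1.03, 0.912 and 1.18% of counts in activated cKO cells, against 0.328, 0.329 and 0.327% in rested cKO cells. In control cells this list held 0.902 and 1.10% after activation, against 0.324 and 0.319% at rest, with no overlap between the states. The 78 mitochondrial ribosomal protein genes, encoded in the nucleus for the separate ribosome of the mitochondrion, lay between these. They took 0.271 to 0.305% in activated and 0.176 to 0.183% in rested cKO cells, and 0.260 and 0.282% in activated and 0.176 and 0.178% in rested control cells.

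**Figure D1:**
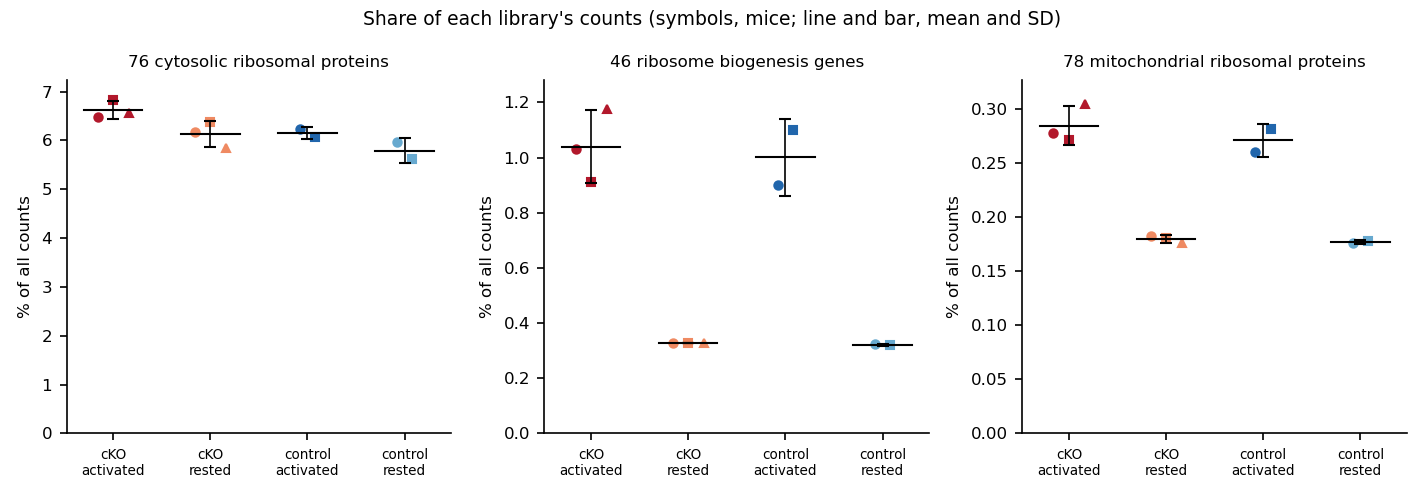
Share of all counts (%, each axis from 0) held by the cytosolic ribosomal protein genes, the ribosome biogenesis genes and the mitochondrial ribosomal protein genes, by library in the groups cKO activated, cKO rested, control activated and control rested (symbols, mice; line and bar, mean and SD). Cytosolic ribosomal proteins stayed between 5.61 and 6.83% in the 10 libraries, while the biogenesis share lay at 0.902% or more in every activated library and at 0.329% or less in every rested one.

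Between members the levels differed far more than between conditions. Per length, in the deposited FPKM, the mean over the 10 libraries ran from 99.3 FPKM for Rpl35a to 3669 FPKM for Rplp1, with a median of 329 FPKM. Rplp1 and Rplp0, proteins of the stalk that recruits the elongation factors, led with 3669 and 1460.4 FPKM, and Rps15, a protein of the small-subunit head near the decoding site, followed with 1399.5 FPKM. Above 1000 FPKM there were 8 members, among them Rpl4, a lining of the peptide exit tunnel, with 1248 FPKM and Rps29, a small zinc-binding protein of the head, with 1194 FPKM. The 5 lowest were Rpl35a, Rpl22, Rps15a, Rpl15 and Rpl36a, at 99.3 to 149 FPKM. The lengths behind these values are the gene lengths of the deposited table, which can exceed the length of a gene's main message. Low values carry that limit.

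Some members were higher and others lower after activation, and most calls were shared by the genotypes. In cKO cells 26 of the 76 were higher and 17 lower in activated than in rested cells at an adjusted p below 0.05 (edgeR quasi-likelihood test, Benjamini-Hochberg over all 18966 genes tested), where 31.5% of all genes tested were called higher and 31.9% lower (43 members in either direction, beside 63.4%). In control cells 20 were higher and 14 lower, beside 28.5% and 27.6% of all genes tested (34 in either direction, beside 56.1%). The fold change was above 0 in 42 members in cKO and 37 in control cells, beside 49.5% and 49.8% of all genes tested. Activated and rested libraries did not overlap for 42 members in cKO cells (66.9% of all genes tested), 29 of them higher (33.5%), and for 53 in control cells (76.8%), 29 of them higher (38.7%). The median log2 fold change of the members was 0.04 in cKO cells and -0.00 in control cells, beside -0.01 and -0.00 over all genes tested. By library totals these medians were 0.11 and 0.06, beside 0.06 and 0.06 over all genes tested, with 53 and 51 members above 0. Most responses were small, with 67 of 76 members within 0.5 log2 units of 0 in cKO cells and 70 of 76 in control cells, that is 88.2% and 92.1%, beside 44.7% and 45.6% of all genes tested. With TMM the share of members called lay near that of all genes for higher calls and below it for lower calls, a difference that was not tested. Under other scalings, filters and tools up to 37 members were called higher in cKO cells. In 51 members the activated library was on the same side of the rested one in all 5 mice, higher for 29 and lower for 22. This was not counted over all genes tested, so it is not shown to be particular to the members. Scaled by library totals in place of TMM, the split became 36 higher and 10 lower in cKO cells and 27 higher and 9 lower in control cells. Of the 18966 genes tested, 12004 were then called in either direction in cKO and 10543 in control cells. Their split by direction was not determined, so the move toward higher calls is not shown to be particular to the members. The 17 lower calls in cKO cells were 9 without cKO mouse 1 and 11 without cKO mouse 2, control mouse 1 or control mouse 2. Leaving out either control mouse keeps 1 control library in each state. Control calls then became fewer among the members in both directions and over all genes tested. Whether the members lost a larger part of their calls was not tested.

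Of the members, 19 were called higher in both genotypes and 14 lower in both. The share of all genes tested called alike in both genotypes was not determined, so these counts have no background beside them. In cKO cells alone 10 were called and 1 (Rpl32) in control cells alone, and none was called in opposite directions. By library totals Rpl32 passed in cKO cells too (adjusted p = 0.0101). A call in 1 genotype does not show a difference between the genotypes, and no member passed the test of that difference. All genes tested gave 31.5% higher and 31.9% lower calls in cKO and 28.5% and 27.6% in control cells, which is the background of the following counts. By subunit, the 30 small-subunit genes gave 9 higher and 10 lower calls in cKO cells and 7 and 9 in control cells. The 46 large-subunit genes gave 17 higher and 7 lower in cKO cells and 13 and 5 in control cells. Summed B cell markers, carried by Ighm, were lower in the activated than in the rested library of each of the 5 mice, at 237 to 287 CPM in activated and 283 to 355 CPM in rested cKO cells, and at 232 and 269 CPM in activated and 272 and 336 CPM in rested control cells. Cd79b alone was at 2.21 to 2.62 CPM in activated and 4.13 to 5.46 CPM in rested cells. The part of these in the members' values was not tested.

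**Figure D2:**
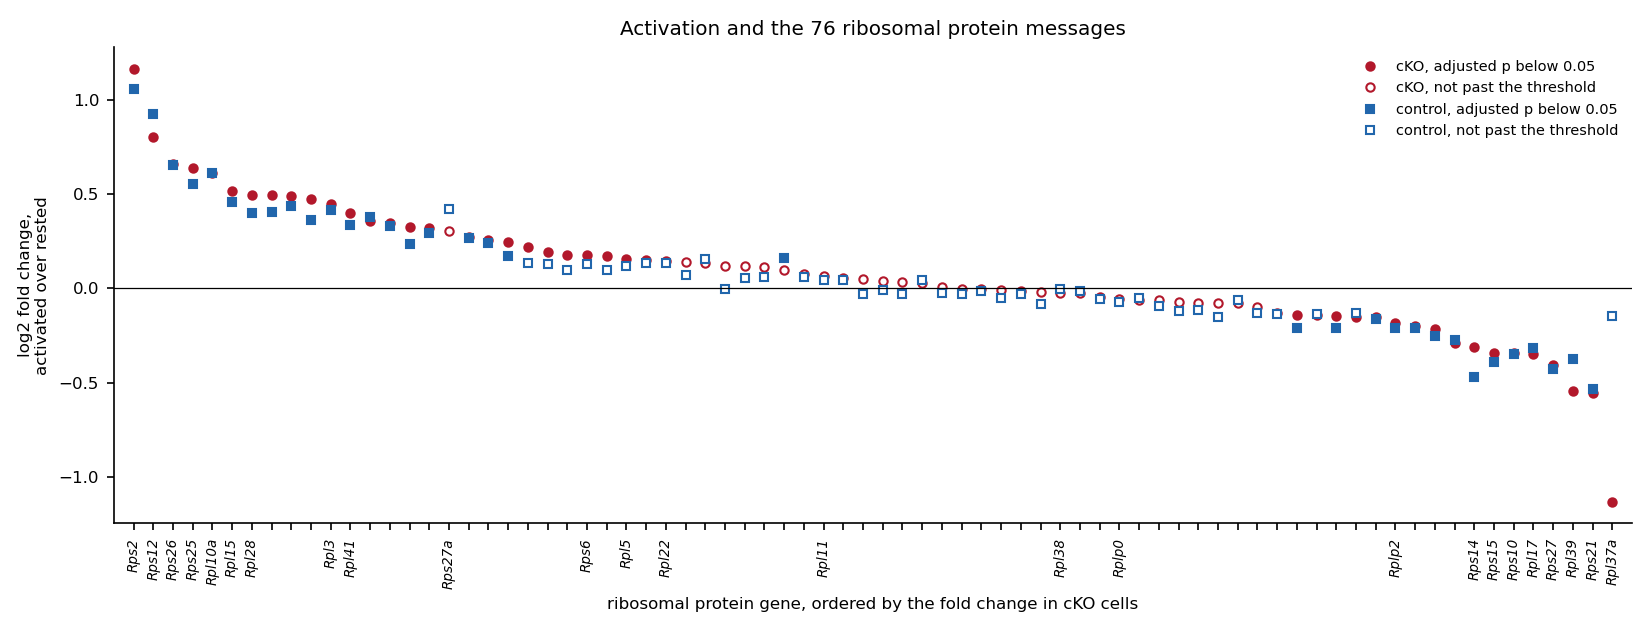
Log2 fold change of each of the 76 ribosomal protein genes, activated over rested, ordered by its value in cKO cells (circles, cKO; squares, control; filled, adjusted p below 0.05; open, not past that threshold; some genes are named on the axis). Rps2 and Rps12 stand at the high end in both genotypes and Rps21, Rpl39 and Rps27 at the low end, while Rpl37a is far below 0 in cKO cells and near 0 in control cells.

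The largest rise was that of Rps2, which lies at the entry of the mRNA channel of the small subunit. It was at 834, 739.8 and 915 CPM in activated cKO cells of mice 1, 2 and 3, against 378, 381 and 346 CPM in their rested cells. In control cells Rps2 was at 723 and 866 CPM after activation, against 364 and 398 CPM at rest. No activated library overlapped with a rested one. The log2 fold change was 1.17 (SE 0.0778, adjusted p = 3.46e-08) in cKO and 1.06 (SE 0.0950, adjusted p = 9.38e-07) in control cells by edgeR.

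Rps12, a protein of the small-subunit beak, was at 963, 956 and 889 CPM in activated cKO cells, against 563, 589.9 and 462 CPM in rested cKO cells. In control cells the levels were 864 and 878 CPM after activation and 517 and 407 CPM at rest. The groups did not overlap in either genotype, and the rested mice numbered 119 (cKO mouse 3 and control mouse 2) were the lowest of their groups. The edgeR log2 fold changes were 0.80 (SE 0.0693, adjusted p = 2.67e-07) in cKO and 0.93 (SE 0.0851, adjusted p = 8.77e-07) in control cells.

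In cKO cells Rps26 and Rps25 followed, while in control cells Rpl10a stood above Rps25. Rps26, which contacts the message upstream of the start codon, was at 598, 623 and 696 CPM in activated and 388, 416 and 409 CPM in rested cKO cells, and at 553 and 581 CPM in activated and 366 and 355 CPM in rested control cells. Its log2 fold change was 0.66 in cKO and 0.65 in control cells (edgeR adjusted p = 2.97e-07 and 3.68e-06). Rps25, needed in yeast and human cells for initiation at several viral internal ribosome entry sites, was at 628, 619.7 and 658 CPM in activated and 395, 417 and 409.6 CPM in rested cKO cells, and at 564 and 594 CPM in activated and 388 and 399.9 CPM in rested control cells. Its log2 fold change was 0.64 in cKO and 0.56 in control cells (edgeR adjusted p = 6.43e-08 and 2.90e-06). For both genes the states were clear of each other in all 5 mice.

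Rpl10a, the protein of the mobile L1 stalk where spent tRNA leaves, had the largest rise in the large subunit. Its level was 564, 556 and 569 CPM in activated and 392, 362 and 351 CPM in rested cKO cells, and 513 and 549 CPM in activated and 359 and 337 CPM in rested control cells, a log2 fold change of 0.61 in each genotype (edgeR adjusted p = 4.80e-07 in cKO and 5.43e-06 in control cells). Named pseudogenes of Rpl10a in the table held as many counts as 31.3% of its own, so reads may be split between them. This limit holds for other members too. Pseudogenes held over 10% of a member's counts in 13 members, among them Rpl38 (50.7%), Rpl36a (26.2%), Rps6 (19.4%) and Rpl31 (16.8%). Among the next were Rpl15 (0.52 in cKO, 0.46 in control), Rpl28 (0.49 and 0.40), Rpl7a (0.49 and 0.41) and Rpl3, which reaches toward the peptidyl transferase centre (0.45 and 0.41), each called higher in both genotypes on the log2 fold change scale. Without control mouse 2 the control calls of Rpl7a (adjusted p = 0.0774) and Rpl3 (adjusted p = 0.0787) ended.

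Among the 14 members called lower in both genotypes, the largest fall in each was that of Rps21, a small eukaryote-specific protein of the small subunit. It was at 400.3, 476 and 389 CPM in activated cKO cells, against 635, 650.0 and 572 CPM in rested cKO cells. Control cells had 419 and 354 CPM after activation, against 593 and 525 CPM at rest. The edgeR log2 fold change was -0.55 (SE 0.0615, adjusted p = 3.02e-06) in cKO and -0.53 (SE 0.0753, adjusted p = 4.18e-05) in control cells, and in each genotype every activated library was below every rested one.

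Rpl39, an X-linked gene for one of the smallest ribosomal proteins, set in the wall of the exit tunnel, was at 228, 259.7 and 224 CPM in activated and 361, 359 and 317 CPM in rested cKO cells, and at 229 and 209 CPM in activated and 312 and 257 CPM in rested control cells. That gave a log2 fold change of -0.54 (SE 0.0575, edgeR adjusted p = 1.95e-06) in cKO and -0.37 (SE 0.0703, edgeR adjusted p = 4.88e-04) in control cells. Rps27, a zinc-binding protein of the platform, was at 1024, 1201 and 965 CPM in activated and 1406, 1475 and 1335 CPM in rested cKO cells, and at 1069 and 893 CPM in activated and 1348 and 1278 CPM in rested control cells. Here the log2 fold change was -0.40 in cKO and -0.43 in control cells (edgeR adjusted p = 9.43e-05 and 4.45e-04), and the control call ended without control mouse 2 (adjusted p = 0.0613). Neither gene had overlapping states within a genotype.

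Further fallers in both genotypes were Rps14, a platform protein whose loss causes the anaemia of the human 5q- syndrome (-0.31 in cKO, -0.47 in control), Rps15 (-0.34 and -0.39), Rps10 of the beak (-0.34 and -0.35), Rpl17 at the exit of the tunnel (-0.35 and -0.31) and Rps16, whose tail touches the tRNA in the P site (-0.29 and -0.27), all as log2 fold changes. Rps24, Rps28, Rplp2, Rpl13 and Rpl13a were also among the 14, with log2 fold changes of -0.14 to -0.25, and of these only Rps24 was still called by library totals in each genotype. In control cells the calls of all 5 ended without control mouse 1 or without control mouse 2 (adjusted p = 0.0759 to 0.256). Leaving out control mouse 1 ended the control calls of Rpl17 (adjusted p = 0.0604) and Rps16 (adjusted p = 0.0789), and leaving out control mouse 2 that of Rps16 (adjusted p = 0.0841).

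**Figure D3:**
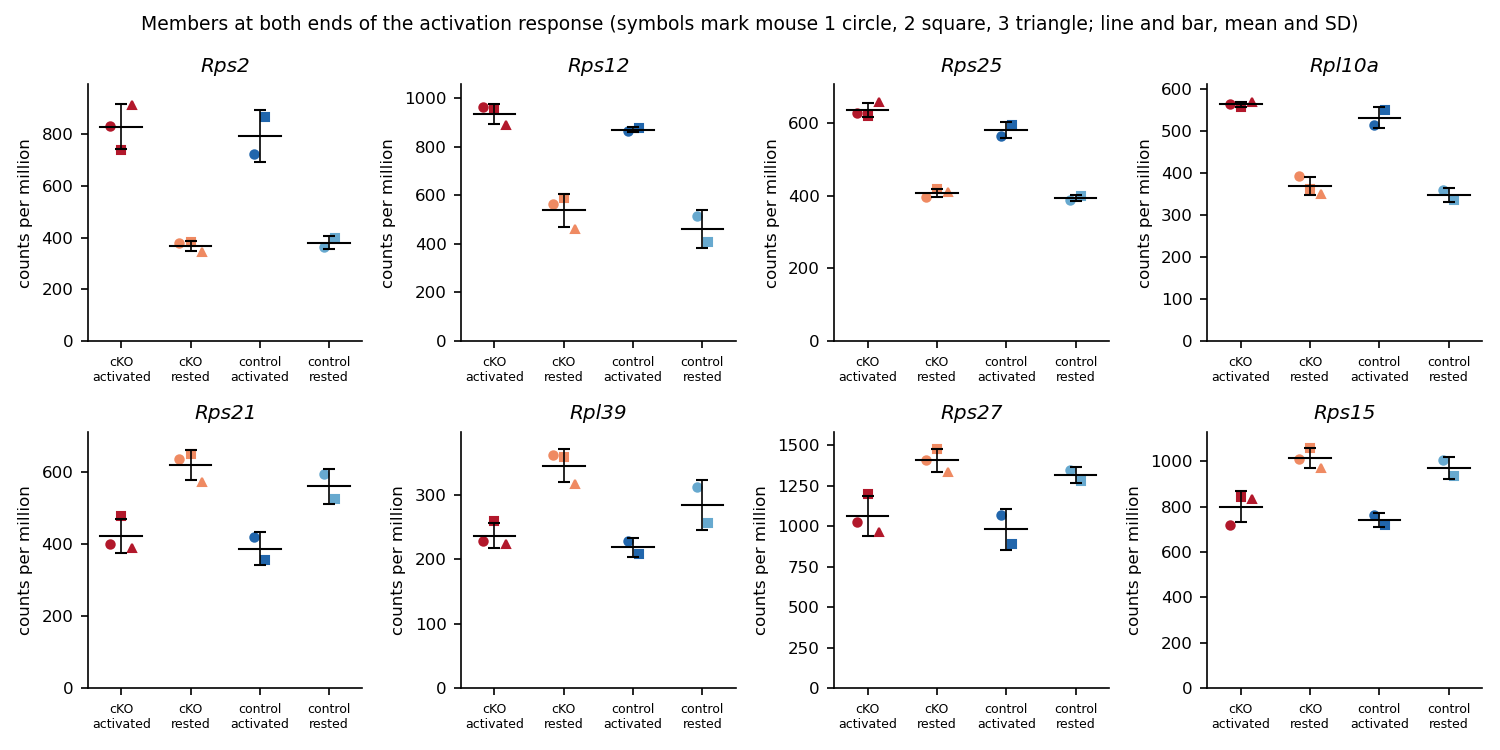
CPM (linear axes from 0) of 4 members with a rise and 4 with a fall after activation, by library in the groups cKO activated, cKO rested, control activated and control rested (circle, mouse 1; square, mouse 2; triangle, mouse 3; line and bar, mean and SD). Within each genotype the activated libraries of Rps2, Rps12, Rps25 and Rpl10a are above the rested ones and those of Rps21, Rpl39, Rps27 and Rps15 below them.

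Since these genes moved in opposite directions, the start regions of both ends of the ranking are set side by side. Each line gives 40 bases before and 30 bases from the start of the RefSeq transcript (GRCm38.p6), 5′ to 3′ on the gene's strand, with the longest run of at least 8 pyrimidines (C or T) in capitals. From genes higher in both genotypes come Rps2 at chr17:24720023-24720092 (plus strand), Rps12 at chr10:23787180-23787249 (minus), Rps26 at chr10:128626477-128626546 (minus), Rps25 at chr9:44407674-44407743 (plus), Rpl10a at chr17:28328431-28328500 (plus) and Rpl15 at chr14:18270957-18271026 (minus).
Rps2: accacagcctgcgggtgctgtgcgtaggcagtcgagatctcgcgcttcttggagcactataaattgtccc
Rps12: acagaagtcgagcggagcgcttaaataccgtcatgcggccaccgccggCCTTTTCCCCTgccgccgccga
Rps26: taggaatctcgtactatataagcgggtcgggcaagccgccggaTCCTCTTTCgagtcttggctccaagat
Rps25: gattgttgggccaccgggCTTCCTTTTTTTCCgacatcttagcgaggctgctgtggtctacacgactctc
Rpl10a: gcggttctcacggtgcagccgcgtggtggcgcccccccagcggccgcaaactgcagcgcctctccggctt
Rpl15: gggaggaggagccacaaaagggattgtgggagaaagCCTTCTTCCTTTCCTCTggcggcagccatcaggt

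The genes lower in both genotypes are Rps21 at chr2:180257339-180257408 (plus), Rpl39 at chrX:37085193-37085262 (minus), Rps27 at chr3:90213619-90213688 (minus), Rps10 at chr17:27635215-27635284 (minus), Rps15 at chr10:80292391-80292460 (plus) and Rps16 at chr7:28350649-28350718 (plus), on the same build and with the same marking.
Rps21: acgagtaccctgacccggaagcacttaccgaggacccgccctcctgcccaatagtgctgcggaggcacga
Rpl39: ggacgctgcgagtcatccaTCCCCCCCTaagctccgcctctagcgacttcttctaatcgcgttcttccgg
Rps27: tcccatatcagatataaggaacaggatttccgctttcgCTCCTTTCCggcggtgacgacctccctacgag
Rps10: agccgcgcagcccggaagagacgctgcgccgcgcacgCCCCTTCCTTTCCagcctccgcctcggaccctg
Rps15: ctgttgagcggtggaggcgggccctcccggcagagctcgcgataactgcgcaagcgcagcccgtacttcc
Rps16: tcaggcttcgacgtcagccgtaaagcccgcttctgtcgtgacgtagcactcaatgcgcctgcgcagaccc

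Both sets hold genes with a pyrimidine run of at least 8 bases and genes with none in these 70 bases. The run spans the listed start in Rpl15, Rps27 and Rps10 and begins after it in Rps12 and Rps26. In Rps25 and Rpl39 the run lies wholly before the listed start. The RefSeq table covered 56 of the 76 members, taking the first start listed for a gene. A pyrimidine run of at least 8 bases on the gene's strand, between 40 bases before and 50 bases after the listed start, was present in 13 of 14 members higher in both genotypes, 9 of 11 lower in both and 23 of 31 of the others, beside 31.2% of the 16438 other protein-coding promoters. Within the 300 bases of each promoter, the letters CCGGAAG (the core bound by ETS factors) were found on either strand in 7 of 14, 4 of 11 and 11 of 31 of these members, beside 12.2% elsewhere. TCTCGCGA was in 2 of 14, 1 of 11 and 6 of 31 (1.52% elsewhere), AAGATGGC (a YY1 core) in 0 of 14, 2 of 11 and 2 of 31 (3.3% elsewhere) and CACGTG (an E box) in 1 of 14, 1 of 11 and 3 of 31 (8.13% elsewhere). A pyrimidine run can include part of CTTCCGG, the other strand of the ETS core. A match is only a run of letters, since listed starts can lie some bases from the one a T cell uses.

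By role, the stalk proteins fell slightly or did not pass the test. Rplp2 was at 815, 902 and 793 CPM in activated and 976, 982 and 895 CPM in rested cKO cells, and at 791 and 736 CPM in activated and 935 and 829.9 CPM in rested control cells. The states overlapped in cKO cells, where activated mouse 2 was above rested mouse 3, and not in control cells. The log2 fold change was -0.18 in cKO (edgeR adjusted p = 0.00701) and -0.21 in control cells (edgeR adjusted p = 0.0133). Rplp0 and Rplp1, its partners, had log2 fold changes of -0.05 and -0.14 in cKO and -0.07 and -0.14 in control cells, with adjusted p between 0.0732 and 0.411, or 0.0361 for Rplp1 in cKO cells with no low-count filter. The Rplp2 call ended by library totals (adjusted p = 0.0671 in cKO and 0.0827 in control cells), without cKO mouse 1 in cKO cells (0.0560) and without control mouse 1 (0.230) or 2 (0.121) in control cells.

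The 5S particle joins Rpl5 and Rpl11 with 5S ribosomal RNA, and both proteins also bind the p53 ligase MDM2 when assembly stalls. Rpl5 was at 1386, 1452 and 1319 CPM in activated and 1258, 1276 and 1202 CPM in rested cKO cells (log2 fold change 0.15, edgeR adjusted p = 0.0129), and had a log2 fold change of 0.12 in control cells with adjusted p = 0.109 (0.0198 by library totals). Rpl11 had 0.06 in cKO and 0.04 in control cells, neither past the threshold, with adjusted p = 0.0435 in cKO cells by library totals. Without cKO mouse 2 the Rpl5 call ended (adjusted p = 0.0703).

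Of the 9 proteins around the exit of the tunnel, 2 rose (Rpl31 and Rpl35) and 2 fell (Rpl17 and Rpl39) in each genotype. Rpl31, the docking site of several nascent-chain factors, had a log2 fold change of 0.32 in cKO and 0.23 in control cells, and Rpl35 0.36 and 0.38. The control call of Rpl31 ended without control mouse 1 (adjusted p = 0.0812) or 2 (0.139), and that of Rpl35 without control mouse 2 (0.0699). Rpl22, which in mice is needed for the development of alpha-beta T cells, did not pass, with 313, 309 and 338 CPM in activated and 289.8, 309.9 and 269 CPM in rested cKO cells (log2 fold change 0.14, edgeR adjusted p = 0.0695), though it did under the other scalings and filters tried, with DESeq2 and limma (adjusted p = 0.0109 to 0.0420) and without cKO mouse 2 (0.0153). In control cells it passed by library totals (adjusted p = 0.0415). Rpl38, known from mouse embryos for its part in translating Hox messages, was at -0.02 in cKO and -0.00 in control cells.

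Rps6, the protein phosphorylated by S6 kinase downstream of mTORC1, was at 763, 783 and 712 CPM in activated and 677, 699 and 624 CPM in rested cKO cells, a rise of 0.18 on the log2 scale (edgeR adjusted p = 0.00486), and its log2 fold change was 0.13 in control cells (adjusted p = 0.0702). The control value passed by library totals, with TMM without the members, with the stricter filter, with DESeq2 and with limma (adjusted p = 0.0115 to 0.0456). Rpsa, which doubles as a laminin receptor, was at 2113, 2227 and 2271 CPM in activated and 1933, 2074 and 1779.5 CPM in rested cKO cells (log2 fold change 0.19, edgeR adjusted p = 0.0163), a call that ended without cKO mouse 3 (adjusted p = 0.199), with 0.13 in control cells (adjusted p = 0.183, or 0.0462 by library totals). Rps19, the gene most often hit in human Diamond-Blackfan anaemia, had log2 fold changes of 0.01 in cKO and -0.02 in control cells and passed in neither, nor did Rps4x, the X-linked form of Rps4 (-0.01 and -0.05). Rpl41, which encodes the shortest of the proteins, rose by 0.40 in cKO and 0.34 in control cells (log2 fold change, edgeR adjusted p = 2.40e-04 and 0.00471), and its control call ended without control mouse 2 (adjusted p = 0.199). Rpl10, placed last on the large subunit, was called in cKO cells (0.18, adjusted p = 0.0360) but not once each mouse served as a block (0.18, adjusted p = 0.0645), nor without cKO mouse 1 (adjusted p = 0.0756) or 3 (0.411).

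Among all genes tested 63.4% were called in cKO and 56.1% in control cells. Among the 33 members with counterparts in bacteria and archaea, 12 were higher and 7 lower in cKO cells and 7 and 6 in control cells. The 43 members outside that list gave 14 and 10 in cKO cells and 13 and 8 in control cells, so neither set had calls in 1 direction only.

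Rps27a, which is made as a fusion with ubiquitin and so supplies both, had 1 rested library out of place. It was at 399, 394 and 407 CPM in activated cKO cells, against 425, 284 and 265 CPM in rested cKO cells of mice 1, 2 and 3. Control cells had 354 and 377 CPM after activation, against 273 and 273 CPM at rest. The rested library of cKO mouse 1 thus lay above every activated one, and the other 4 rested libraries below all of them. With all mice the log2 fold change of 0.31 in cKO and 0.42 in control cells missed the threshold (edgeR adjusted p = 0.139 and 0.112). Without cKO mouse 1 it was 0.55 (adjusted p = 8.89e-05) in cKO and 0.42 (adjusted p = 5.05e-04) in control cells, and with each mouse as a block 0.33 and 0.42 (adjusted p = 0.0248 in each).

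Rpl37a, a zinc-binding protein of the large subunit (chr1:72750449-72752972 in the deposited table, mm39), had the lowest fold change of the family in cKO cells, with 2 of the 3 rested libraries high. It was at 173, 220.0 and 198 CPM in activated cKO cells, against 558, 555 and 232 CPM in rested cKO cells of mice 1, 2 and 3. Control cells had 194 and 185 CPM after activation, against 203 and 213 CPM at rest. Rested cKO mice 1 and 2 thus stood apart from the other 8 libraries, which lay between 173 and 232 CPM. The log2 fold change, activated over rested, was -1.13 (SE 0.321, edgeR adjusted p = 0.0252) in cKO and -0.14 (SE 0.385, adjusted p = 0.781) in control cells. The cKO call ended without cKO mouse 1 (-0.85, adjusted p = 0.126), without cKO mouse 2 (-1.01, adjusted p = 0.166), without control mouse 1 (adjusted p = 0.0766) or control mouse 2 (adjusted p = 0.0761), and in a fit of the cKO libraries alone (adjusted p = 0.0536).

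For the genotypes themselves no member was called in either state. Between cKO and control cells 0 of 76 members passed at rest and 0 of 76 after activation (edgeR, adjusted p below 0.05), where in each state 0.0264% of all genes tested were called higher and 0.0158% lower (0.0422% in either direction). At an unadjusted p below 0.05 there were 6 members at rest and 11 after activation, beside 783 and 1142 of the 18966 genes tested. DESeq2 and limma on log2 FPKM also called 0 members in both states. Without a low-count filter edgeR called Rpl37a and Rpl39 higher at rest, where 204 of 32684 genes were called in either direction. The interaction, whether activation acted differently in cKO than in control cells, called 0 members with edgeR, beside 0% of all genes tested. DESeq2 and limma also called 0 members in it. At an unadjusted p below 0.05 by edgeR the interaction had 0 members, beside 519 of the 18966 genes tested. Its value was above 0 in 59 members, beside 47.4% of all genes tested, but in 35 without cKO mouse 3.

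The members nevertheless lay mostly on one side. After activation the log2 fold change of cKO over control was above 0 in 76 of 76 members, with a median of 0.09 and a range of 0.01 to 0.18, where 50.7% of all genes tested were above 0. The members were not alone in this. Above 0 were also 72 of 78 mitochondrial ribosomal protein genes (median 0.09), 41 of 46 biogenesis genes (0.08) and 19 of 19 other TOP messages (0.065). Regulators of TOP messages and mTORC1 had 8 of 16 above 0, and ribosomal protein pseudogenes 90 of 145. At rest the value was above 0 in 72 of 76 members, with a median of 0.07, beside 51.3% of all genes tested. The members' counts ran from 71 to 76 after activation and from 60 to 74 at rest under the other scalings, filters and tools and without each mouse in turn. All 3 activated cKO libraries exceeded both activated control libraries in 50 of 76 members, where 17.1% of all genes tested did not overlap and 7.7% did so by being higher. At rest all 3 cKO libraries exceeded both control libraries in 16 of 76, beside 17.7% and 8.97%. Because the members share their libraries, a small shift common to the family in 1 library moves all of them, and no test of the family as a whole was made. As shares of all counts, activated cKO cells had 6.47 to 6.83% and activated control cells 6.06 and 6.24%, while rested cKO (5.85 to 6.38%) and rested control cells (5.61 and 5.98%) overlapped.

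Within the mouse numbers most members had the same sign. After activation, 67 of 76 members were above the control of the same number in cKO mouse 1, 76 in cKO mouse 2 and 76 in cKO mouse 3. The medians were 0.06, 0.14 and 0.11 log2 units, where 50.2, 51.4 and 50.1% of all genes tested were above 0. At rest the members' counts were 60, 76 and 60, with medians of 0.05, 0.09 and 0.06, beside 52.1, 51.2 and 50.1% of all genes tested. Both cKO mice 1 and 2 were set against control mouse 1, so their counts are not independent. The mitochondrially encoded messages, with no test, took slightly less of the counts after activation in cKO than in control cells, at 1.53 to 1.59% in cKO and 1.59 and 1.63% in control cells. Summed NK cell markers (Klre1, Klrb1c, Ncr1 at no more than 4 counts in a library, and Gzma, which effector CD8+ T cells also make) were higher in activated cKO (2.74 to 3.03 CPM) than in activated control cells (1.15 and 1.41 CPM), and higher in rested cKO (3.33 to 5.12 CPM) than in rested control cells (1.72 and 2.34 CPM). The part of either in the members' values was not tested.

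Single members differed little by genotype. Rps26, the member with the largest activated difference, was at 598, 623 and 696 CPM in activated cKO and 553 and 581 CPM in activated control cells (log2 fold change 0.18, SE 0.0645, edgeR adjusted p = 0.760). Rpl28 was at 566, 585 and 632 CPM in activated cKO and 519 and 539 CPM in activated control cells (0.18, SE 0.0583, adjusted p = 0.724). Neither overlapped, and neither passed. At rest Rpl37a had a log2 fold change of 0.99 (SE 0.373, edgeR adjusted p = 1) with cKO mice 1 and 2 high, at 1.45 within the mice numbered 116 and 0.12 within those numbered 119. Without cKO mouse 3 it was called, at 1.42 (adjusted p = 0.00106), as was its interaction (-1.37, adjusted p = 0.0209). Rested Rpl39 was at 361, 359 and 317 CPM in cKO and 312 and 257 CPM in control cells (0.26, SE 0.0648, edgeR adjusted p = 0.867).

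**Figure D4:**
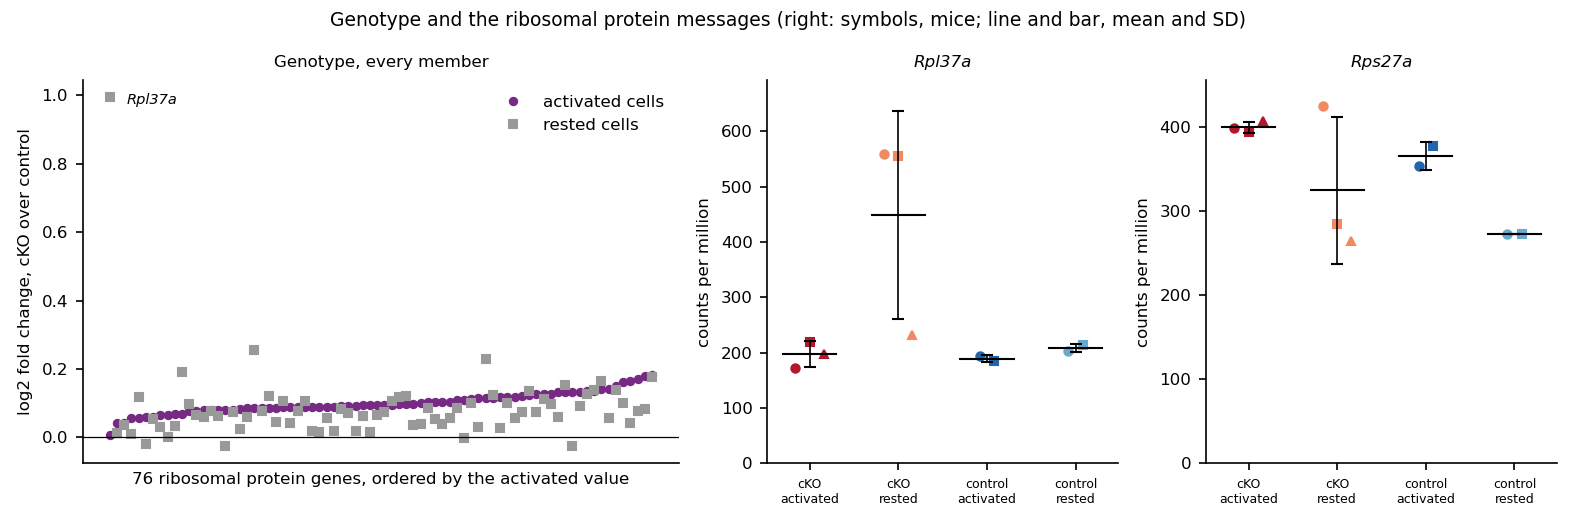
Left, log2 fold change of cKO over control cells for the 76 members, ordered by the value in activated cells (circles, activated; squares, rested); right, CPM of Rpl37a and Rps27a by library in the groups cKO activated, cKO rested, control activated and control rested (axes from 0; circle, mouse 1; square, mouse 2; triangle, mouse 3; line and bar, mean and SD). The activated values lie between 0.01 and 0.18, and the rested Rpl37a value of 0.99 rests on cKO mice 1 and 2.

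The ribosome parts outside the name rule also gave calls in both directions, with 1 of 4 higher and 2 lower in each genotype. Rps3a1, a small-subunit protein near the mRNA exit, was at 1379, 1418 and 1417 CPM in activated and 1147, 1246 and 1243 CPM in rested cKO cells (log2 fold change 0.21, edgeR adjusted p = 0.00234), and rose by 0.16 in control cells (adjusted p = 0.0429, but 0.0802 with each mouse as a block, 0.354 without control mouse 1 and 0.212 without control mouse 2). Fau, a ubiquitin-like fusion that yields Rps30, fell, with log2 fold changes of -0.26 in cKO and -0.34 in control cells (edgeR adjusted p = 6.13e-04 and 4.59e-04). Its control call ended without control mouse 2 (adjusted p = 0.0555). Rack1, the scaffold on the small-subunit head, had 0.08 in cKO and 0.01 in control cells and passed in neither, though in cKO cells it did by library totals (0.15, adjusted p = 0.0208).

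Several members have expressed relatives with larger fold changes than their own. Of the 12 relatives listed, 9 were tested, with 5 higher and 1 lower in cKO cells and 4 higher and 1 lower in control cells. Rps27l, known in mice to be able to stand in for Rps27 and 76.1% identical to it in coding sequence, was at 52.9, 55.1 and 62.5 CPM in activated and 11.9, 13.6 and 12.2 CPM in rested cKO cells. In control cells it was at 49.8 and 51.6 CPM after activation and 11.6 and 11.8 CPM at rest. Its log2 fold change of 2.17 in cKO and 2.12 in control cells (edgeR adjusted p = 9.46e-11 and 1.53e-09) stands beside -0.40 and -0.43 for Rps27. Rps27rt, with a coding sequence 100% identical to that of Rps27, fell too (-0.37 in cKO and -0.47 in control cells), and reads of these 2 genes may be split by the counting.

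Rpl7l1, a relative of Rpl7 with 54.1% identity whose yeast counterpart acts in ribosome assembly, was at 148, 134 and 164 CPM in activated and 46.5, 48.0 and 43.3 CPM in rested cKO cells, and at 132 and 156 CPM in activated and 48.5 and 45.6 CPM in rested control cells. Its log2 fold change was 1.69 in cKO and 1.61 in control cells (edgeR adjusted p = 2.38e-09 and 4.43e-08), beside 0.22 and 0.13 for Rpl7. Rpl22l1, at 68.2% identity to Rpl22, was at 104, 97.2 and 103 CPM in activated and 50.7, 50.8 and 48.6 CPM in rested cKO cells, and at 77.7 and 99.4 CPM in activated and 50.1 and 62.7 CPM in rested control cells (1.01 and 0.65, edgeR adjusted p = 1.66e-07 and 8.33e-05). Rpl36al, a relative at 87.9% identity to Rpl36a, rose by 0.50 in cKO and 0.58 in control cells (log2 fold change, edgeR adjusted p = 2.02e-05 and 4.84e-05), beside 0.14 and 0.15 for Rpl36a. Rpl36a did not pass with TMM, but did in cKO cells under the other scalings and filters and with DESeq2 and limma (adjusted p = 0.0125 to 0.0474), and in control cells by library totals (0.0256). Rps4l was called in cKO cells alone (1.37, adjusted p = 2.16e-04, against 0.30 and 0.412 in control cells), and Rpl39l, Rpl37rt and Rps15a-ps6 in neither, though Rpl37rt passed in cKO cells by library totals (0.20, adjusted p = 0.0132). In each of the 4 pairs plotted the member stayed at the higher level in CPM in every library.

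**Figure D5:**
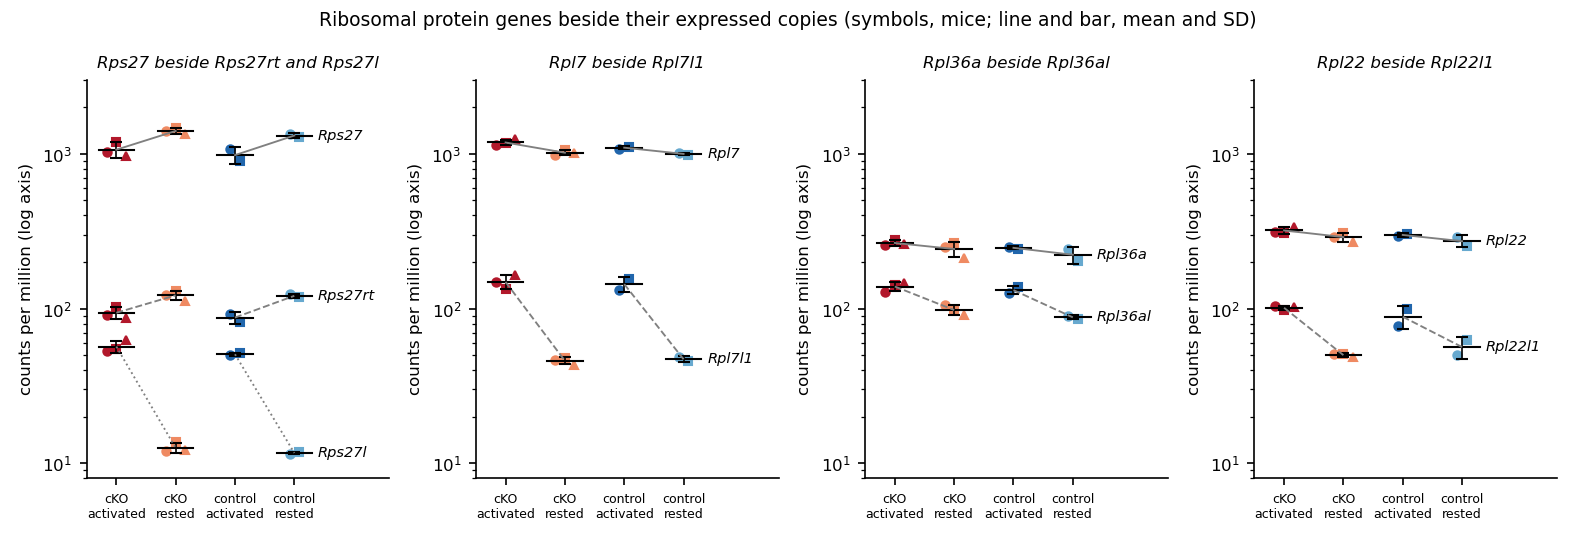
CPM (log axis) of Rps27, Rpl7, Rpl36a and Rpl22 beside Rps27rt and Rps27l, Rpl7l1, Rpl36al and Rpl22l1, by library in the groups cKO activated, cKO rested, control activated and control rested (symbols, mice; line and bar, mean and SD; grey lines join the states of a genotype). Rps27 is lower and Rps27l higher in activated cells, and Rpl7l1, Rpl36al and Rpl22l1 are higher in activated cells and below their partners in every library.

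The pathways around the members were described from lists, whose counts stand beside 31.5% higher and 31.9% lower calls over all genes tested in cKO cells and 28.5% and 27.6% in control cells. All 46 biogenesis genes were tested, with 45 higher and 0 lower in activated cKO cells and 44 and 0 in activated control cells, and median log2 fold changes of 1.69 and 1.61. Examples are Gar1 (2.39 in cKO and 2.27 in control) and Nop58 (2.46 and 2.36), parts of the particles that modify ribosomal RNA, Mrto4, which prepares the stalk site (2.42 and 2.25), and Polr1a, the largest RNA polymerase I subunit (1.65 and 1.67). Ubtf, a polymerase I transcription factor, passed in neither genotype (0.05 and -0.00). Of the 8 chaperones that each escort a single or a few ribosomal proteins, 6 rose in each genotype, with a median of 1.33. Ltv1, which helps place Rps3, had log2 fold changes of 2.02 in cKO and 2.14 in control cells, Heatr3, which imports Rpl5 and Rpl11 in yeast and human cells, 1.58 and 1.49, and Tsr2, the escort of Rps26, 1.42 and 1.47.

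Mitochondrial ribosomal proteins gave 66 higher and 1 lower of 78 in cKO and 58 and 1 in control cells, with a median of 0.63 in each. The 7 host genes of small nucleolar RNAs, whose spliced transcripts also start with a TOP tract, gave 7 higher calls in cKO and 6 in control cells, with log2 fold changes of 1.12 in cKO and 1.09 in control cells for Gas5 and 1.94 and 1.87 for Snhg1. Other TOP messages, which encode elongation and initiation factors and the like, also gave calls in both directions, with 12 of 19 higher and 4 lower in each genotype and medians of 0.22 and 0.23. Eef2, the translocating elongation factor, was among the fallers (-0.46 in cKO, -0.49 in control), and Eef1g (0.66 and 0.56) and Eif3a (0.71 and 0.73) among the risers. Of 16 regulators of TOP messages and mTORC1, 8 rose and 5 fell in cKO and 7 and 5 in control cells. Examples are Eif4e, the cap-binding protein, at 1.90 and 1.74, Rheb, the activator of mTORC1, at 0.94 and 0.89, and Eif4ebp2, a repressor of Eif4e, at -0.88 and -0.85. Of 6 tested genes for ligases of ribosomal proteins and the p53 response, 4 rose and 1 fell in cKO cells and 4 and 0 in control cells, with Trp53 at 0.67 in cKO and 0.72 in control cells, while Mdm2 passed in neither (0.02 and -0.10). Of the 304 named ribosomal protein pseudogenes, 145 passed the low-count filter, with 31 higher and 12 lower calls in cKO and 15 and 10 in control cells, and together they held 0.188 to 0.230% of counts in each library.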

How the data were processed

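Bulk RNA sequencing of 10 libraries (5 mice, activated and rested) was analysed from the authors' deposited table. Libraries were stranded mRNA libraries made from total RNA, per the labels' protocols. Subread, FastQC and MultiQC were run on build mm39, per the submitters' processing notes. The sources used here do not state the aligner settings, annotation release, strand setting or treatment of multiply mapped reads, which leaves overlapping and near-identical genes uncertain. The deposited counts are whole reads per gene, with no normalization. The deposited FPKM values, scaled by the authors per gene length and library, served to compare levels between genes and in an alternative.

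Genes were tested with edgeR 4.0.16 in R 4.3.3 (TMM, filterByExpr by group, robust quasi-likelihood fit of 4 group means plus sex over all libraries, 18966 genes tested). The fit had 5 residual degrees of freedom and a biological coefficient of variation of 9.14%. Adjusted p is Benjamini-Hochberg over all genes tested, with a threshold of 0.05, and CPM is the count scaled by the TMM-adjusted library size, while shares and marker sums use the library total. Standard errors were computed back from the fold change and its F value. Alternatives used DESeq2 1.42.0 and limma 3.58.1. The fit was checked on simulated counts. Mice are separate animals. Deviations from the group means correlated between the libraries of a mouse at 0.146 to 0.356, while the correlation estimated on voom values with sex in the model was -0.135; mouse was also tried as a block. Replicate libraries were not repeats of each other, with a chi-square over its degrees of freedom of 8.55 to 41.7. The floor on counts was set at 3 per library, and every member lay above it.

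Members were named as the 8 highest and 8 lowest called without overlap in a comparison, the 5 highest and lowest by FPKM, and a fixed list with known roles; other lists gave up to 4 genes by smallest p, and any gene named outside this was picked with its values in view. The members, the lists and the rule were chosen with earlier results of these data known. Promoters are RefSeq's (GRCm38.p6), and coding identities come from global alignments of GENCODE M21 sequences with Biopython 1.88. The deposited coordinates are mm39 and were not mixed with these. Some items are not reported here.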

Additional observations from a re-analysis of the deposited data

How the results depend on the processing

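With all mice kept, 33 of the 43 calls of members in cKO cells and 27 of the 34 in control cells held under each alternative fit, and 29 and 15 also held without any one mouse. No called member changed sign. Without a control mouse each control state keeps 1 library, and fewer control calls were made there over all genes tested as well. The median member fold change turned from -0.00 to 0.06 in control cells by library totals, and in the interaction from 0.03 to -0.00 without cKO mouse 3; in cKO cells it was 0.02 without cKO mouse 3 and 0.11 by library totals and with limma. The members called lower in cKO cells, 17 with TMM, were 10 by library totals, 10 with limma on log2(FPKM + 0.5), 10 on log2(FPKM + 0.1) and 11 in a fit of the compared groups. In control cells, 14 became 9, 9 and 9 under the first 3 of these. Higher calls in cKO cells, 26 with TMM, were 32 with DESeq2 size factors, TMM without the members, no low-count filter and DESeq2. They were 33 with the stricter filter, 36 by library totals, and 36 and 37 with limma. In control cells 20 higher calls became 20 to 27 under the same settings. Over all genes tested, library totals and limma called 12001 to 12033 in either direction in cKO cells, beside 12017 with TMM. In control cells they called 10335 to 10543, beside 10631 with TMM. The split of these by direction was not determined. Leaving out each mouse gave 21 to 28 higher and 9 to 14 lower members in cKO and 10 to 20 higher and 6 to 14 lower in control cells, 0 to 1 higher in rested cKO against control cells and 0 to 1 lower in the interaction. Without a low-count filter 2 members were higher in rested cKO cells, Rpl37a and Rpl39, and 1 lower in the interaction, Rpl37a. In those fits 204 and 39 of 32684 genes were called in either direction. Of protein-coding counts the members' share was 6.93% in activated and 6.41% in rested cKO cells and 6.44% in activated control cells. The causes were not tested beyond the construction of each alternative. The median log2 fold change over all genes tested moved by less than 0.1 under every scaling.

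Pairing by mouse rests on libraries of the same animal. With the replicate block, 26 members were higher and 14 lower in cKO cells, and 19 and 13 in control cells, with 0 in the genotype comparisons and the interaction. Calls that ended under the block included those of Rpl10, Rps9 and Rpl13 in cKO and of Rpl9 and Rpl32 in control cells (adjusted p = 0.0548 to 0.0862), and Rps27a gained one in each genotype. With 2 or 3 mice a group, the spread between mice and not the depth limits these values.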
